A study of Mus musculus with 6 samples.

Results

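The strong distal SP1 sites are 246 of the 9001 sites that the authors' deposited table lists for the transcription factor SP1. They were chosen by 2 properties, a midpoint more than 10 kb from the nearest end of any RefSeq protein-coding gene and a mean ATAC-seq signal of 20 or more. Mean signal is the normalized read count of a site averaged over the libraries, and these sites reached from the limit to 116 (median 25.9), so this level is a property of the choice and not a finding. They make up 4.35% of the distal sites and 22.6% of the sites that strong.

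The cells were R1 mouse embryonic stem cells (ESC), which are pluripotent, and cells labelled R1 NPC, read here as neural progenitor cells by the usual meaning of the letters, with 3 ATAC-seq libraries of each. ATAC-seq inserts sequencing adapters into open chromatin with the Tn5 transposase, so reads over a site report how open it is. Here nuclei came from frozen cells of both groups. The labels give no treatment, genotype, age or passage for either group, and do not say whether a group's libraries were grown as separate cultures, so p-values may measure technical spread only. The deposited table covers chromosome 1, chromosome 10 and chromosome 11 up to position 20195189, and it holds 1 comparison, NPC over ESC, a direction read from the name it was deposited under. Without values per library, which were not analysed here, neither the depth of a library nor an SD over libraries stands beside a site, and markers of the 2 cell types were not checked.

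SP1 is a zinc-finger protein best known at CpG-rich promoters, where it binds the GC box and helps to keep broadly expressed genes active. Open chromatin far from genes is typical of enhancers and of insulator sites, and enhancers tend to be used in some cell types and not in others. An SP1 site far from the ends of genes can also lie at a start that the gene ends do not mark, such as an internal start of a gene or the start of a noncoding RNA.

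A RefSeq start lay at some of these sites. RefSeq windows from 250 bases before to 50 bases after a transcription start (build GRCm38.p6, the same assembly as mm10) overlapped 25 of the 246 sites, 10.2%. The same was true of 2.33% of the distal sites with a mean signal below 20 and of 77.0% of the equally strong sites within 1 kb of a gene end. A coding gene's start was among those overlapped at 16 sites and noncoding genes alone at 9. At Hdac4, Kifap3 and Slc39a10 the start is 15.4, 17.4 and 46.1 kb inside the span that RefSeq gives the gene.

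The stretches below are shown because they span what the strong distal sites at starts look like, from CpG-rich with several GC boxes to free of CpG. Each is the part of the 250 bases before the start that lies within the site, 5′ to 3′ on the gene's strand, and capitals mark the GC box GGGCGG or its reverse complement CCGCCC. Hdac4 (a histone deacetylase), Kifap3 (a kinesin-associated protein) and the noncoding gene Celrr had sites that were not called changed, the Slc39a10 (zinc transporter) site rose, and the sites of 1700019D03Rik and the noncoding gene Gm33388 fell.
Hdac4, chr1:92180342-92180591, minus strand: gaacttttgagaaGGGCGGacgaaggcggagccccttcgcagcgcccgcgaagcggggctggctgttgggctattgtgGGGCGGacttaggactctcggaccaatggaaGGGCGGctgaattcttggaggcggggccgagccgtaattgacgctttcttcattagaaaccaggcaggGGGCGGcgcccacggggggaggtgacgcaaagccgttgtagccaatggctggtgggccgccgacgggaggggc
Kifap3, chr1:163779333-163779582, plus strand: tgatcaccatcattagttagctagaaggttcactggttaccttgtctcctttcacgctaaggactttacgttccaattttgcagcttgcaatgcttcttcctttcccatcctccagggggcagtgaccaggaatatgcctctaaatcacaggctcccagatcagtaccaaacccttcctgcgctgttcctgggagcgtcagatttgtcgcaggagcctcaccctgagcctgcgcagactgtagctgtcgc
Slc39a10, chr1:46853619-46853868, minus strand: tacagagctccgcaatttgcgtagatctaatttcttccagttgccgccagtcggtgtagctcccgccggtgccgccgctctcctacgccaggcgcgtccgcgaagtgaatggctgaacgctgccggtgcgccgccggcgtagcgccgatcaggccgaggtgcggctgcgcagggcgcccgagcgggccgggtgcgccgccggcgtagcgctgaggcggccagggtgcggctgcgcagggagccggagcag
Celrr, chr1:121087155-121087404, plus strand: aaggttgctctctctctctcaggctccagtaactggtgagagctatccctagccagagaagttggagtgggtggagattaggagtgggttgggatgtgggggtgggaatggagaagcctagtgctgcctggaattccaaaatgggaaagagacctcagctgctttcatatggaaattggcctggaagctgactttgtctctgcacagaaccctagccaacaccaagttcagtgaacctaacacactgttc
1700019D03Rik, chr1:52953615-52953864, minus strand: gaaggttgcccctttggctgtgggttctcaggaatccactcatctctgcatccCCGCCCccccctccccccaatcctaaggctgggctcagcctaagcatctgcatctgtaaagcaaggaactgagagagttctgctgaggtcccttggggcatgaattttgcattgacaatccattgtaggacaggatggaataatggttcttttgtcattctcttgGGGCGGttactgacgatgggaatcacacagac
Gm33388, chr1:119305493-119305742, plus strand: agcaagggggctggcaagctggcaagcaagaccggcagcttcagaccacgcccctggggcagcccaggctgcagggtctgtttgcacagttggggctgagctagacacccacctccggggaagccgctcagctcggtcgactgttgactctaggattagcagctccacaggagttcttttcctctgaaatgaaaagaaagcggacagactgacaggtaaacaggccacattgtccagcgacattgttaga

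The Hdac4 stretch held 4 GC boxes and 23 CpG pairs, the Slc39a10 stretch no GC box and 37 CpG pairs, and the Celrr stretch neither. The 1700019D03Rik stretch held 2 GC boxes with 3 CpG pairs, the Gm33388 stretch no GC box with 8 and the Kifap3 stretch no GC box with 7. Over the 30 start windows that strong distal sites overlapped, each 300 bases long, 53.3% held GGGCGG on either strand, against 75.6% of the 615 windows overlapped by strong gene-end sites and 35.7% of all 32851 windows. Median GC content was 61.3%, 63.7% and 52.7% in the same order. AGGGGGC, letters within the motif of the insulator protein CTCF that can overlap a GC box, was in 33.3%, 19.3% and 10.6% of them on either strand. These letters describe the windows and show no binding, and sequence of the other 221 sites was not analysed here. The 30 windows belong to 26 genes and some overlap, as at Tiprl, so shared sequence is counted more than once.

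Most strong distal sites changed between the cell types, and by a large factor. Of the 246 sites, 108 rose in NPC (43.9%, 95% Wilson interval 37.8 to 50.2) and 87 fell (35.4%, 29.7 to 41.5) at an adjusted p below 0.05 in the authors' deposited table. Over all listed sites 22.8% rose and 32.6% fell. The sites were chosen on mean signal from the same fit, so the larger share of called sites carries no test; their standard errors had a median of 0.47, against 1.06 at the distal sites of lower signal. Among the called sites, rises had a median log2 fold change of 3.50 (11.3-fold) and falls one of -4.99 (31.8-fold). Over all listed sites these medians were 3.03 and -3.24. The choice on mean signal bears on this comparison too, and it carries no test. Median signal was 5.78 over all listed sites and 25.9 at the strong distal sites, and its part in the larger folds was not tested. The Wilson intervals cover counting over sites, which are not replicates.

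Falls were mostly very large, whereas rises covered the whole range of sizes. Of all 246 sites, 63 lay below -4 on the log2 scale, 11 from -4 to -2, and 2 of those 11 above -3. On the side of rises the values were spread out, with 20 sites from 1 to 2, 58 from 1 to 5 and 39 at 5 or more. The median over all 246 was 0.25, with quartiles of -4.14 and 3.10. The 51 uncalled sites lay between -0.65 and 0.62, and 45 of them within 0.5 of 0. Their standard errors had a median of 0.29 and reached 0.37.

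**Figure D1:**
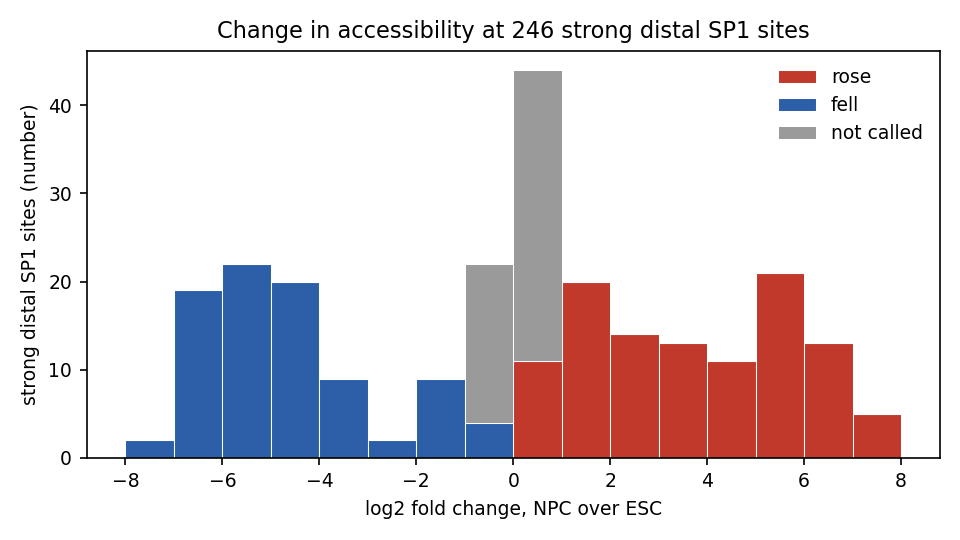
Number of strong distal SP1 sites (vertical axis) by log2 fold change of NPC over ESC (horizontal axis, bins of 1), coloured by rose, fell or not called at an adjusted p below 0.05. Falls gather below -4 with 2 sites from -3 to -2, rises spread from below 1 to above 7, and the 51 uncalled sites lie within 0.65 of 0.

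The mean signal and fold change of a site together imply a level in each cell type, given equal numbers of libraries. For the sites that fell, the median implied level was 45.4 normalized counts in ESC and 1.54 in NPC, and for 55 of the 87 the NPC level was below 2. For those that rose, it was 4.44 in ESC and 48.3 in NPC, with 41 of the 108 below 2 in ESC. These levels were computed here from the authors' values. The ESC and NPC levels of a site average to its mean signal, on which the sites were chosen. A site with little signal in either cell type could therefore pass only through a high level in the other. The 55 falls and 41 rises below 2 passed in this way. The medians of 45.4 in ESC for falls and 48.3 in NPC for rises are thus partly a property of the choice. When p-values were recomputed by dividing each fold change by its error, they were below the deposited ones at 0 of the 246 sites, with a median ratio of recomputed to deposited of 2.79. No source used here states whether the fold changes were shrunk towards 0. If they were, the folds are understated and the lower level of each pair is overstated.

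Strong sites nearer to gene ends had smaller changes. Within 1 kb of a gene end, 226 of 675 strong sites rose (33.5%) and 46 fell (6.81%), with a median absolute log2 fold change of 0.43. From 1 to 10 kb, 68 of 167 rose (40.7%) and 37 fell (22.2%), with a median absolute value of 0.82. At the 246 distal sites that median was 3.50, and 45.9% exceeded 4, against 0.593% within 1 kb. Among the 5410 distal sites with a mean signal below 20 the median absolute value was 2.35, and 22.5% rose and 35.2% fell. Signal differed between these classes too, with medians of 34.9 within 1 kb, 27.8 from 1 to 10 kb, 25.9 at the strong distal sites and 4.37 at the weak distal sites, and its part in the differences was not tested.

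**Figure D2:**
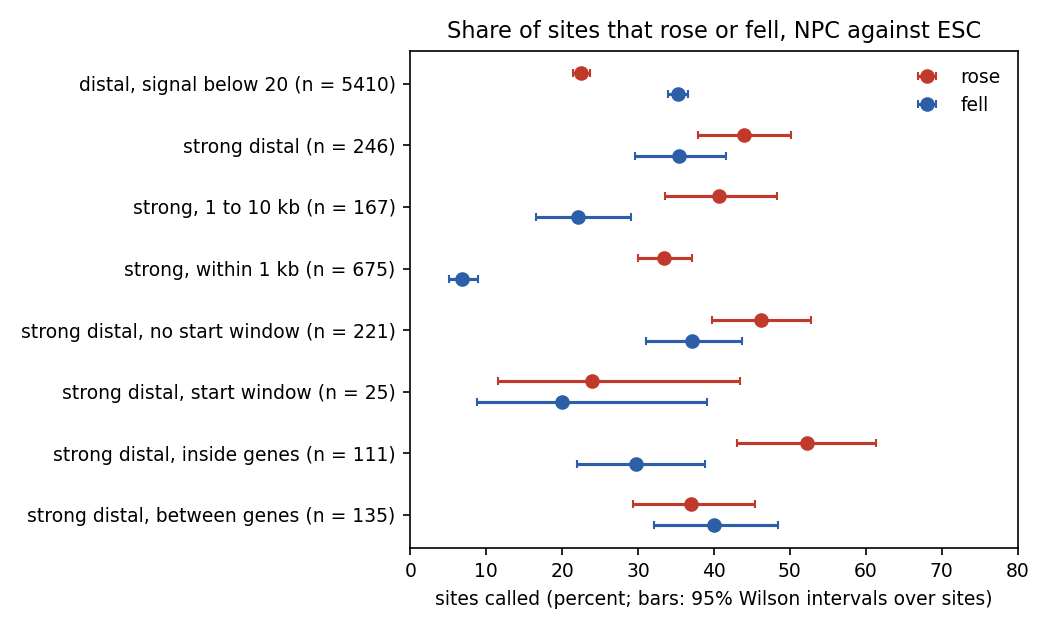
Percentage of sites that rose or fell in NPC against ESC (horizontal axis) in classes of SP1 sites, with 95% Wilson intervals over sites as bars. The share that fell goes from 6.81% within 1 kb of a gene end to 35.4% at the strong distal sites, and the lower rows split the strong distal sites by RefSeq start window and by position relative to genes.

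The strong distal sites at RefSeq starts mostly had small changes. Of the 25, 14 were not called, 6 rose and 5 fell, and the median absolute log2 fold change was 0.43. Of the 221 others, 37 were not called (16.7%), 102 rose and 82 fell, with a median absolute value of 4.07. Of the 25, 2 exceeded 4, against 0.593% of the gene-end class. A start window did not go with a lower median among the strong gene-end sites, 0.43 with one and 0.42 without. Among the weaker distal sites the median absolute value was lower with one, 1.75 against 2.36, while 43.7% with one and 42.2% without were not called. Signal was higher at the 25 starts, with a median of 36.5 against 25.6. By signal, the not-called numbers at starts and elsewhere were 3 of 9 and 25 of 150 from 20 to 30, 6 of 10 and 11 of 61 from 30 to 50, and 5 of 6 and 1 of 10 above. In the lowest of these ranges 4 of the 9 sites at starts fell, and their median absolute log2 fold change was 1.28. No site at a start rose by more than 1.28 on the log2 scale, whereas 50 of the others rose by more than 4. The sites were sorted by start after their values were seen, and no test was run.

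The 6 rises at starts were modest and all lay at coding genes, with Hk1, which encodes hexokinase, sharing its site with the antisense noncoding gene Hk1os. At Slc39a10 the site rose by 1.02 ± 0.22 (SE) on the log2 scale from an implied 60.4 to 123 normalized counts (adjusted p = 1.43e-05 in the authors' deposited table). In the same table Jmjd1c, a gene of the JmjC-domain family of histone demethylases, had 1.28 ± 0.40, and Sash1, a scaffold protein gene, 1.22 ± 0.28. Hk1 had 1.05 ± 0.30, Pik3ip1, an inhibitor of PI3 kinase, 0.98 ± 0.40 and Nemp2, a nuclear envelope protein gene, 0.67 ± 0.29 in the authors' deposited table. The falls were at noncoding genes and at 1700019D03Rik. Its pair of overlapping sites, which share reads, had -4.65 ± 0.68 and -3.84 ± 0.55, and the Gm33388 site had -5.25 ± 0.74 in the authors' deposited table. Gm29695 had -1.68 ± 0.34 and 2900060B14Rik -0.91 ± 0.32 there.

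**Figure D3:**
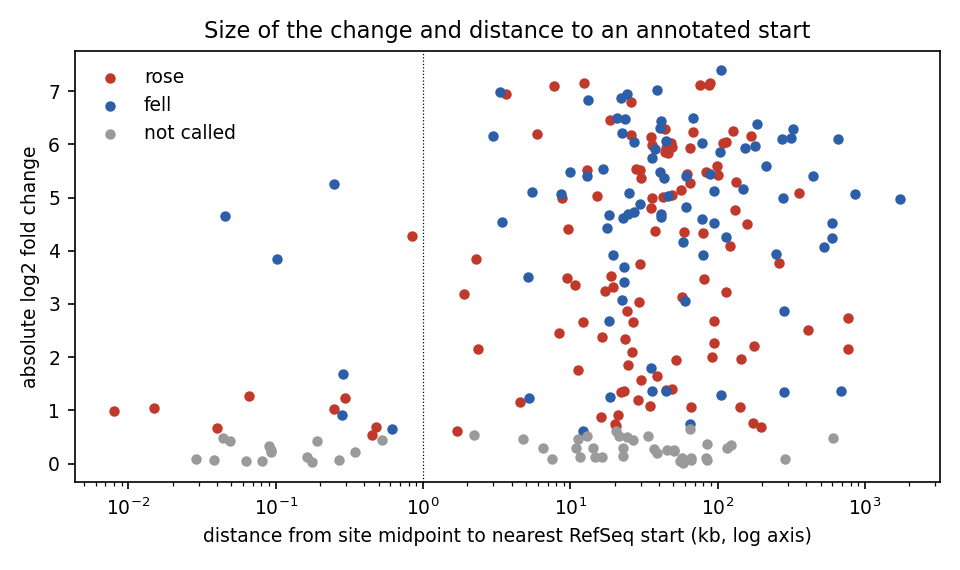
Absolute log2 fold change (vertical axis) against the distance from a site's midpoint to the nearest RefSeq start in kb (horizontal log axis, dotted line at 1 kb) for the 246 strong distal sites. Of the 30 sites within 1 kb, 70.0% lie under 1, against 20.8% of the 216 farther away; the start table is not complete, so distances are upper limits.

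The sites of highest signal were mostly uncalled starts and called sites without a start. Of the 10 highest, 6 were at start windows and 4 were called. Kifap3 (mean signal 116), Hdac4 (95.8), Stk25, a kinase gene (92.9), Tiprl, a regulator of PP2A-type phosphatases (63.3), and Celrr (56.7) were not called; the authors' deposited table gives them 0.09 ± 0.20, 0.13 ± 0.19, 0.06 ± 0.18, 0.42 ± 0.22 and 0.05 ± 0.22 on the log2 scale. The site 110 kb from Ogfrl1 (62.7) rose by 0.70 ± 0.25 there. The uncalled site 39.1 kb from Ptma (57.5), which encodes prothymosin alpha, had 0.13 ± 0.24 there and no start window. The site 64.7 kb from Tmtc2, a transmembrane protein of the endoplasmic reticulum, at chr10:105638972-105639472, rose by 5.27 ± 0.43 from an implied 4.40 to 170 normalized counts. Its adjusted p, 7.15e-30, is the smallest among all 9001 sites in the authors' deposited table. The site 835 kb from Cntnap5a (58.7), at chr1:114849626-114850126, went the other way with -6.84 ± 0.99, an implied 116 in ESC and 1.02 in NPC.

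**Figure D4:**
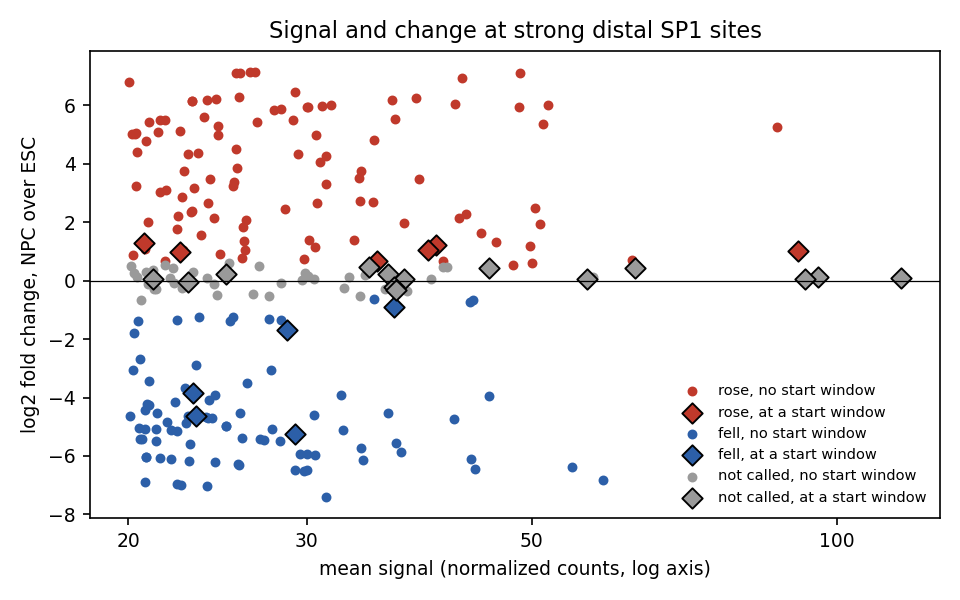
Log2 fold change of NPC over ESC (vertical axis) against mean signal in normalized counts (horizontal log axis) for the 246 strong distal sites, with diamonds for the 25 that overlap a RefSeq start window. Apart from 3 falls beyond -3, the diamonds lie between -1.68 and 1.28 up to the highest signal, 116, and most circles lie away from 0.

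The largest rises had almost no implied signal in ESC, which follows from their fold changes and mean signals. The site 17.0 kb from Smpdl3a, a phosphodiesterase gene, at chr10:57828568-57829068, rose by 6.29 ± 1.12, with an adjusted p of 8.11e-08 as the authors' deposited table gives it. The nearest of the listed RefSeq starts, which are not complete, is that of Fabp7, a lipid-binding protein made by radial glia, 43.9 kb away. An unlisted start may be nearer. The site 112 kb from Marcks, a protein kinase C substrate that binds actin, rose by 6.23 ± 1.12, from an implied 0.644 to 48.2 normalized counts. The site 37.1 kb from C1d, an RNA exosome cofactor, had 6.46 ± 1.12 and the site inside Adhfe1, a mitochondrial dehydrogenase gene, 6.25 ± 0.98 in the authors' deposited table. Ahead of these came the sites nearest Nek2, Meis1, Timp3, Fhl2, Tbc1d30 and Dpt, from 7.15 down to 6.80, whose implied ESC levels were 0.357 to 0.704 and NPC levels 39.7 to 96.7.

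The 10 largest falls, taking 1 site per nearest gene, ran from -7.39 inside Hs3st5 to -6.38 inside Kcnt2, a sodium-activated potassium channel gene. The Kcnt2 site, at chr1:140429239-140429739 and 184 kb from the gene's nearer end, was the most precise of them, with a standard error of 0.83, an implied 108 in ESC against 1.30 in NPC; the authors' deposited table gives it an adjusted p of 7.83e-13. The site 314 kb from Ccer1 had -6.44 ± 0.98, falling from an implied 86.8 to 1.00. The site 16.6 kb from Inhbb, which encodes the activin beta-B subunit, had -6.48 ± 1.13 (adjusted p = 3.84e-08 in the authors' deposited table). Those nearest Mrpl42, Zfp648, Cntnap5a, Gli2, Akap12 and Brinp3 lay between -7.03 and -6.49, with implied NPC levels of 0.350 to 0.658. At such levels the exact fold rests on how the authors' fit treats a group with almost no reads.

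Sites inside genes rose more often than they fell, and those between genes did so about equally. Of 111 strong distal sites inside a protein-coding gene, 58 rose (52.3%, 43.0 to 61.3) and 33 fell (29.7%, 22.0 to 38.8). Of 135 between genes, 50 rose (37.0%, 29.4 to 45.4) and 54 fell (40.0%, 32.1 to 48.4). Between genes the order of the 2 shares turned under 4 of the 15 other settings, to 38.9% rising and 36.9% falling with a mean signal of 15 or more, 38.6% and 27.3% with 30 or more, 43.8% and 35.4% without chromosome 1, and 40.0% and 37.8% with fold changes centred on the median of all sites. The difference between the 2 positions was not tested. The shares that rose were 40.0% of 55 sites 10 to 20 kb from a gene end, 39.0% of 82 at 20 to 50 kb, 51.0% of 51 at 50 to 100 kb, 59.4% of 32 at 100 to 200 kb and 34.6% of 26 beyond. The median absolute log2 fold change went from 1.40 in the first of these classes to 5.01 in the last. Among the sites beyond 200 kb, 14 of 26 fell. On the listed part of chromosome 11, 16 of 22 sites rose and 3 fell, against 58 and 54 of 147 on chromosome 1 and 34 and 30 of 77 on chromosome 10. The splits by position, distance and chromosome were not made over all listed sites. Whether they are particular to the strong distal sites was not tested.

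Strong distal sites at genes of the neuron list mostly fell. Of 12 strong distal sites nearest to or inside 9 genes of the neuron list, 3 rose and 9 fell, with a median log2 fold change of -5.23, against 0.25 for all 246 sites. This list was drawn up with earlier results in view, and it included Cntnap5a and Brinp3, which hold 5 of the falls. Another fall was inside Ctnna3, an alpha-catenin gene (-6.09 ± 0.83 in the authors' deposited table). The sites of Cntnap5b and Grik2, a kainate receptor subunit gene 1462 kb away, fell as well. The rises were inside Map2, a dendritic microtubule protein gene (3.47 ± 0.49), inside Astn1, a neuronal migration gene (1.85 ± 0.36), and inside Syn3, the synapsin site nearest Timp3, in the authors' deposited table. Over all 276 listed sites at 21 genes of that list, 44 rose (15.9%) and 115 fell (41.7%), against 22.8% and 32.6% of all 9001 sites, so most sites of the whole list did not fall.

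The other lists held few of the strong distal sites. Of all 80 listed sites of the pluripotency list 15% rose and 56.25% fell, and 2 of the 80 were strong distal sites. The one 214 kb from Nr5a2, a nuclear receptor gene active in ESC, fell by 5.97 ± 0.99, and the one inside Esrrg, an orphan receptor gene related to the pluripotency factor Esrrb, rose by 5.42 ± 0.84, both from the authors' deposited table. At Gli2 and Meis1, both in the neural progenitor list, 3 of 6 sites rose, 2 fell and 1 was not called. Over all 129 listed sites of that list 37.2% rose and 32.6% fell. In the axon guidance list, 3 rose and 1 fell, at the semaphorin receptor gene Plxna2 and at Srgap1. Over all 142 listed sites of that list 42 rose and 42 fell (29.6% each). The 3 sites of the chromatin list all rose, inside Tet1, a methylcytosine dioxygenase gene (1.34 ± 0.27), at the Jmjd1c start, and inside Hmga2, a chromatin architectural protein gene (2.86 ± 0.45), in the authors' deposited table. Over all 71 listed sites of the chromatin list the balance was the other way, with 15 rising (21.1%) and 27 falling (38.0%). Of all 200 listed sites of the developmental signalling list 23.5% rose and 34% fell. Of its 15 strong distal sites 4 rose, 6 fell and 5 were not called. Among them the site 20.9 kb from Wnt10a fell (-2.67 ± 0.45), the one inside Tgfb2 rose (5.83 ± 0.98), the one inside Ptprk, a receptor phosphatase gene, rose (0.77 ± 0.35), and the one inside Lgr5, an R-spondin receptor gene, had 0.06 ± 0.25 in the authors' deposited table.

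Of all 141 listed sites of the mesenchymal and matrix list 24.8% rose and 27.7% fell. Among its 5 strong distal sites 3 rose. Those nearest Dcn, the decorin gene (0.29 ± 0.33), and 12.7 kb from Tgfb2 (0.15 ± 0.27) were not called in the authors' deposited table. The neural crest list held 3 sites at Kitl, the ligand of the Kit receptor, where 1 fell by 5.15 ± 0.85 and the other two, which overlap, had 0.26 ± 0.28 and -0.24 ± 0.32 there. Of all 36 listed sites of the neural crest list 11.1% rose and 47.2% fell. The shares were 32.4% and 27% of the 37 sites of the glia list, and 33.3% and 14.8% of the 27 of the mesoderm and endoderm list. The strong distal sites of the glia list were a rise inside Tnr, the tenascin-R gene (3.23 ± 1.03), and a fall near Gja1, the connexin 43 gene. The mesoderm and endoderm list had 1 strong distal site, which rose by 1.37 ± 0.35 at 74.5 kb from Sox17 in the authors' deposited table. The SP and KLF family had none. A site's nearest gene need not be one it regulates.

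Some genes had several strong distal sites, which changed together at some and in opposite directions at others. The 246 sites had 189 nearest genes, 43 of them with 2 or more. Around Mgat5, an N-glycan branching enzyme gene, all 3 rose, with 5.49 ± 0.99, 4.81 ± 0.58 and 6.02 ± 0.98 in the authors' deposited table. Inside Crb1, a polarity gene of neural epithelia, both rose, by 5.93 ± 0.98 and 5.36 ± 0.57 there. Around Akap12, a protein kinase A anchor gene, all 3 fell, with -4.82 ± 0.75, -6.50 ± 1.13 and -4.62 ± 0.68 across 84.5 kb. Both Meis1 sites about 299 kb from the gene rose by over 7, while the one 54.7 kb away, at the other side, had 0.05 ± 0.26 (adjusted p = 0.871 in the authors' deposited table).

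At other loci rises and falls stood side by side. The Gli2 site inside the gene rose by 3.31 ± 0.43, and a pair of overlapping sites 21.3 and 21.6 kb outside it had -6.88 ± 1.13 and -6.22 ± 1.13 in the authors' deposited table. Around Inhbb the order along the chromosome was a rise of 5.95 ± 0.98, a fall of 5.25 ± 0.74 at the Gm33388 start, an uncalled site with -0.52 ± 0.29 and a fall of 6.48 ± 1.13, all from the authors' deposited table. Inside Tns3, a focal adhesion protein gene, 2 sites rose by 0.69 and 1.06 and the other two fell by 4.52 and 5.44 in the authors' deposited table. Inside Sash1 the site at the start rose, while one 3141 bp away fell by 4.54 ± 0.69 in the authors' deposited table. Near Pecr, an enoyl-CoA reductase gene, and Mreg, 4 sites within 18.4 kb moved little, from -0.08 to 0.69. Of 18 pairs of adjacent called sites within 50 kb that do not overlap, 8 both rose, 5 both fell and 5 went opposite ways. Midpoints were 502 to 13008 bp apart in pairs that rose, 5009 to 43647 bp in pairs that fell and 3141 to 48558 bp in opposite pairs. At 502, 520 and 653 bp, sites 500 bp long nearly touch and may share reads, so such pairs are not independent.

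**Figure D5:**
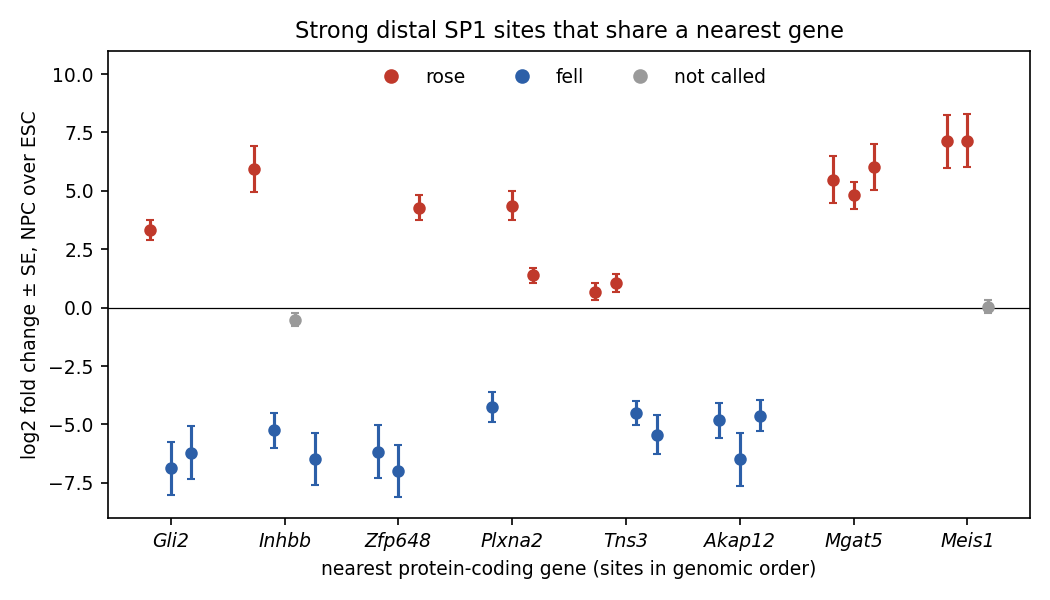
Log2 fold change of NPC over ESC (vertical axis, bars are the deposited standard errors) of the strong distal sites that share a nearest protein-coding gene, in genomic order at 8 genes. The sites of Mgat5 rose and those of Akap12 fell, whereas Gli2, Inhbb, Zfp648, Plxna2 and Tns3 had both.

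The listed SP1 sites around the strong distal sites tended to share their direction at short range. Within 10 kb of sites that rose there were 91 other listed sites not overlapping them, of which 48.4% rose and 16.5% fell. Around those that fell there were 78, of which 17.9% rose and 57.7% fell. Within 50 kb the shares were 33.3% and 25.1% of 451 around rises, and 18.8% and 43.1% of 367 around falls. The shares over all listed sites are 22.8% and 32.6%, and neighbours are described here without a test, since 1 site can be the neighbour of several. Sites that nearly touch, such as those 502 bp apart by midpoint at Meis1, are counted as neighbours and may share reads.

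Sites on either side of the signal limit of 20 included rises and falls. The lowest site inside it, 25.9 kb from Dpt with a signal of 20.03, rose by 6.80 ± 1.13, and the next, inside Nme7 with 20.08, fell by 4.63 ± 0.75. Just below it were the sites nearest Cited2 (signal 19.999, log2 fold change -1.90 ± 0.42) and Arl4c (19.996, 5.39 ± 0.99), all in the authors' deposited table. The nearest to the 10 kb limit was the site at the Gm29695 start inside Lemd1, at 10171 bp, and the farthest that 1725 kb from Cntnap5a.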

How the data were processed

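ATAC-seq of 3 ESC and 3 NPC libraries was grouped by the sample titles. Per the submitters' processing notes the authors used BWA 2.1, Picard 2.23.8, MACS2 2.2.7, SAMtools 1.9 and DESeq2 with build mm10; the role of each, the DESeq2 version, any shift of reads for Tn5 and how the SP1 sites were chosen are not stated in the sources used here. Mean signal is the authors' deposited signal per 500 bp site, by its column name DESeq2's mean normalized count. The log2 fold changes with their standard errors, the p-values and the adjusted p-values are the authors' deposited values. The adjusted p-values are not those that adjustment over the listed sites alone would give.

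Distances were measured from site midpoints to the ends of protein-coding genes in RefSeq GRCm38.p6. The table does not say whether coordinates count from 0 or 1. Start windows and their sequences came from RefSeq; 196 of the 246 sites have a nearest gene with a listed start. A site was called at a deposited adjusted p below 0.05. No test across sites was run, because sites are not replicates. The implied ESC level is 2 times the mean signal divided by 1 plus the fold of NPC over ESC, and the NPC level is the ESC level times that fold. The distance search, the recomputed p-values with their adjustment, and the overlap groups were tested on simulated data. Computation used Python 3.11.15, pandas 2.3.3 and scipy 1.17.1. The sites and lists were chosen with earlier results of these data known. No column of values per sample was left unused (0). Sites named are the 10 largest rises and falls (1 per nearest gene), the 10 of highest signal, the 5 uncalled of highest signal, those of the 11 gene lists, linked groups of 3 or more within 50 kb, and the limits of the rule; others, such as those at starts and at Mgat5 or Crb1, were chosen after their values were seen. The values of 1 site of the neuron list are not reported here.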

Additional observations from a re-analysis of the deposited data

How the results depend on the processing

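The shares that rose and fell, the median log2 fold change and the shares not called at starts and elsewhere were recomputed under other limits of signal (15 and 30), distance (5 and 20 kb) and adjusted p (0.01), with all RefSeq genes, an added log2 limit of 1, adjustment over the listed sites, recomputed p-values, centred fold changes, 1 site per overlap group and without each chromosome. With a mean signal of 30 or more, 24.1% fell, and without chromosome 1, 50.5% rose. Among sites of that higher signal 20.9% of those inside genes and 27.3% of those between genes fell. The other values stayed within the 95% intervals of the reported ones, with 33.3% to 37.7% falling and 39.4% to 49.4% rising. Leaving out the sites at start windows, chosen after seeing the data, gave 46.2% rising and 37.1% falling. The median went from 0.13 without chromosome 11 to 0.61 without chromosome 1. Of 79 named sites, tried under the 5 settings of p-value, threshold and centring, none that was called changed sign. At most 3 lost their call under any 1 setting. Centring gave a call to 2 named sites that had none, and the share not called at starts went from 56% to 48%. It also turned the sign of 2 uncalled sites, at Kitl (from -0.24 to 0.05) and Pecr (from -0.08 to 0.20). No paired analysis was possible because the table holds no values per library, and for the same reason no library could be left out and depth is unknown.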
